A study of Oryza sativa Indica Group with 5 samples.

Results

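Sucrose synthases are the enzymes that split sucrose, the sugar that a leaf exports to a growing grain, into UDP-glucose and fructose, using UDP. The step is reversible, its products feed starch and cell wall synthesis, and in cereal endosperm it is regarded as the main route by which imported sucrose enters metabolism. In maize, loss of the endosperm sucrose synthase of the Shrunken1 gene gives collapsed, starch-poor kernels. The rice family comprises 7 genes, SUS1 to SUS7, and these 7 loci, taken as a list by locus name, are described here across developing seed of high-amylose and waxy rice. Of the 7, 6 have at least 1 probe on the array, with 10 probes in all, out of 48857 loci on the array. SUS5 (LOC_Os04g24430, chromosome 4) has no probe and was not analysed here. Member names follow common usage for these loci, and a RefSeq gene table of the Japonica assembly ASM3414082v1 lists all 7 symbols on the chromosome that the locus name gives.

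The RNA came from developing seed of Oryza sativa Indica accessions, taken 16 days after anthesis from plants of a shared glasshouse regime with days at 29 °C and nights at 21 °C. Each of the 5 single-colour Agilent arrays carried Cy3-labelled RNA of another accession: 3 of haplotype 8 with high-amylose grain, and 2 of haplotype 4 with waxy grain, a type poor in amylose. Every array being a different accession, an SD or p-value covers the spread between accessions, their genetic differences and technical differences together. Replicate numbers only name the accessions.

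The level used throughout is the log2 processed signal of a probe minus that of the array's 75th percentile, so 0 is the brightness of that percentile. That percentile was 183, 108 and 88.8 intensity units on high-amylose arrays 1 to 3, against 203 and 212 in waxy seed. High-amylose replicates 2 and 3, the dimmer arrays, shared a scan date, and both waxy arrays were scanned on another date, which no high-amylose array shared. Group and scan date therefore cannot be told apart. The Waxy gene (LOC_Os06g04200) makes the granule-bound synthase of amylose, and its transcript was at 7.96, 8.46 and 8.32 on the high-amylose arrays, at 8.21 on the array labelled waxy replicate 1 and at 3.70 on waxy replicate 2, so it was low on only 1 of the 2 waxy arrays. Member differences below are therefore also given without each waxy array. All 7 starchy endosperm markers on the array, of 9 listed, and all 5 embryo and aleurone markers were well above background on every array. Of 9 tested green outer layer markers, of 10 listed, 4 were.

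Within the family, 4 loci could be compared between the groups: SUS1, SUS2, SUS3 and SUS4, whose main probes were well above background on all 5 arrays. None of the 4 differed past the threshold, an adjusted p under 0.05 in limma with Benjamini-Hochberg adjustment over all 28945 loci tested, and none had an unadjusted p under 0.05. Over the whole table limma called 8 loci, or 0.0276% of those tested, and 3.40% had an unadjusted p under 0.05, so 0 of 4 is no result about the family. SUS2 and SUS3 had the higher mean in high-amylose seed, by 1.83-fold and 1.76-fold, and SUS1 and SUS4 in waxy seed, by 1.55-fold and 1.21-fold. The median log2 difference of the 4 was 0.27 (high-amylose minus waxy), against 0.03 over all loci tested. It was -0.11 without high-amylose replicate 1, -0.19 without waxy replicate 1 and 0.95 with a term for the high-amylose arrays of a shared scan date. The median standard error over all loci was 0.46, which limits what 3 accessions against 2 can show. SUS6 and SUS7 were too dim to be tested.

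**Figure D1:**
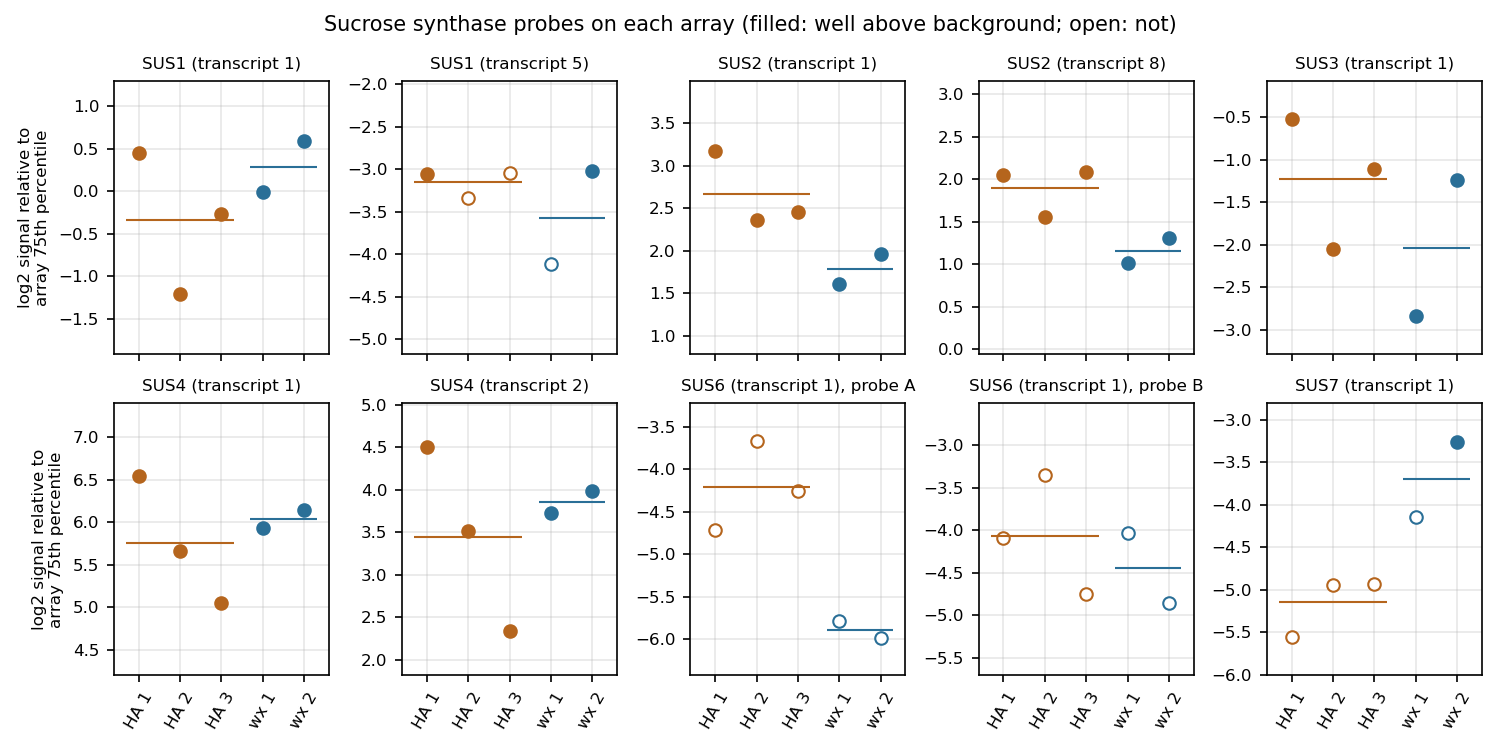
Log2 signal of each of the 10 sucrose synthase probes relative to the 75th percentile of its array (vertical axis, each panel spanning the same range of log2 units around its own centre) on the 3 high-amylose arrays (HA, brown) and the 2 waxy arrays (wx, blue). Filled points are well above background, open points are not, and horizontal lines are group means. The 2 SUS2 panels are those of the tested loci in which every high-amylose point lies above every waxy point, while SUS6 has no filled point.

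SUS2 (LOC_Os06g09450, chromosome 6), a form expressed broadly over the rice plant, was the member with the smallest p. Its main probe stood at 3.17, 2.36 and 2.46 in the high-amylose accessions (replicates 1 to 3) and at 1.61 and 1.97 in waxy replicates 1 and 2. All 3 high-amylose arrays thus lay above both waxy arrays, and high-amylose replicate 1 was the highest of the 5. The group means were 2.67 ± 0.44 (SD, n = 3) and 1.79 ± 0.25 (SD, n = 2). The difference of 0.88 (SE 0.44, 95% interval -0.12 to 1.87) missed the threshold (limma, adjusted p = 1.00, unadjusted p = 0.0783). Groups without overlap, high-amylose higher, occurred at 8.52% of all loci tested, so this pattern is not rare in the table. SUS2 ranked 1491 of 28945 loci by p.

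A second SUS2 probe, annotated to transcript 8 of the locus, gave the same order of the groups. It was at 2.05, 1.55 and 2.09 on the high-amylose arrays and at 1.01 and 1.31 on the waxy arrays. With every probe tested apart, its difference was 0.74 (SE 0.42, limma adjusted p = 1.00), beside 0.88 for the first. On high-amylose replicate 3 this probe was as high as on replicate 1, while the first was lower there. The SUS2 difference was 0.70 without waxy replicate 1, 1.05 without waxy replicate 2 and 0.62 without high-amylose replicate 1. With the 2 dimmer high-amylose arrays left out it was 1.38, a value that rests on high-amylose replicate 1 alone for its group. Over all alternatives the adjusted p of SUS2 ran from 0.525 to 1.00.

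SUS3 and SUS4 are the forms known to be expressed mainly in the filling rice caryopsis. SUS4 (LOC_Os03g22120, chromosome 3) has 2 probes, annotated to transcripts 1 and 2. The first was at 6.54, 5.66 and 5.05 in high-amylose replicates 1 to 3 and at 5.92 and 6.14 in the waxy accessions. The high-amylose arrays lay on both sides of the waxy pair, replicate 1 above it and replicates 2 and 3 below it. High-amylose accessions spanned 2.81-fold in SUS4, and the waxy accessions lay within 1.16-fold of each other. The group difference was -0.28 (SE 0.51, 95% interval -1.42 to 0.86, limma adjusted p = 1.00). It was -0.68 without high-amylose replicate 1 and 0.07 without high-amylose replicate 3, so its sign depended on single arrays. It was -0.39 without waxy replicate 1 and -0.17 without waxy replicate 2.

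The second SUS4 probe showed the same order over the arrays with a wider span. It was at 4.50, 3.51 and 2.33 on the high-amylose arrays, a 4.50-fold span from highest to lowest, and at 3.73 and 3.99 on the waxy arrays. Its difference was -0.41 (SE 0.61, limma adjusted p = 1.00 with every probe tested apart). Both SUS4 probes were thus lowest on high-amylose replicate 3 and highest on high-amylose replicate 1. The extraction software put the error of a single spot at 10.0% of the signal for both on every array.

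SUS3 (LOC_Os07g42490, chromosome 7) has 1 probe. It was at -0.52, -2.05 and -1.11 in high-amylose replicates 1 to 3 and at -2.84 and -1.24 in waxy replicates 1 and 2. The groups overlapped, with waxy replicate 2 above high-amylose replicate 2. The group means were -1.23 ± 0.77 (SD, n = 3) and -2.04 ± 1.13 (SD, n = 2), and the difference was 0.82 (SE 0.61, 95% interval -0.56 to 2.19, limma adjusted p = 1.00). The waxy accessions differed 3.03-fold from each other in SUS3, against 1.16-fold in SUS4 and 1.28-fold in SUS2. The difference accordingly rested on waxy replicate 1, the array on which the Waxy transcript was not low: it was 0.02 without that array and 1.61 without waxy replicate 2. The software's error of a SUS3 spot, which covers that spot alone, was 10.3% to 16.2% of its signal.

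SUS1 (LOC_Os03g28330, chromosome 3) is known in rice mainly from elongating tissues. Its main probe, annotated to transcript 1, was at 0.45, -1.21 and -0.27 in high-amylose replicates 1 to 3 and at -0.01 and 0.59 in the waxy accessions. High-amylose replicates 2 and 3 were below both waxy arrays and replicate 1 lay between them. The group means were -0.34 ± 0.83 (SD, n = 3) and 0.29 ± 0.42 (SD, n = 2). The difference of -0.63 (SE 0.54, 95% interval -1.85 to 0.59) did not pass (limma adjusted p = 1.00), and it was -1.03 without high-amylose replicate 1 and -0.20 without replicate 2. It was -0.93 without waxy replicate 1 and -0.33 without waxy replicate 2. High-amylose accessions spanned 3.14-fold in SUS1, the widest span of the 4 main probes.

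The other SUS1 probe, annotated to transcript 5, gave the opposite sign. It was well above background on only 2 arrays, at -3.05 on high-amylose replicate 1 and -3.02 on waxy replicate 2. On the other three arrays it was at -3.34 and -3.04 in high-amylose seed and -4.11 in waxy seed, not well above background. Its difference was 0.42 (SE 0.47, limma adjusted p = 1.00 with every probe tested apart). With both probes averaged, the SUS1 difference was -0.11 in place of -0.63, so the direction given for SUS1 rests on the transcript 1 probe.

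**Figure D2:**
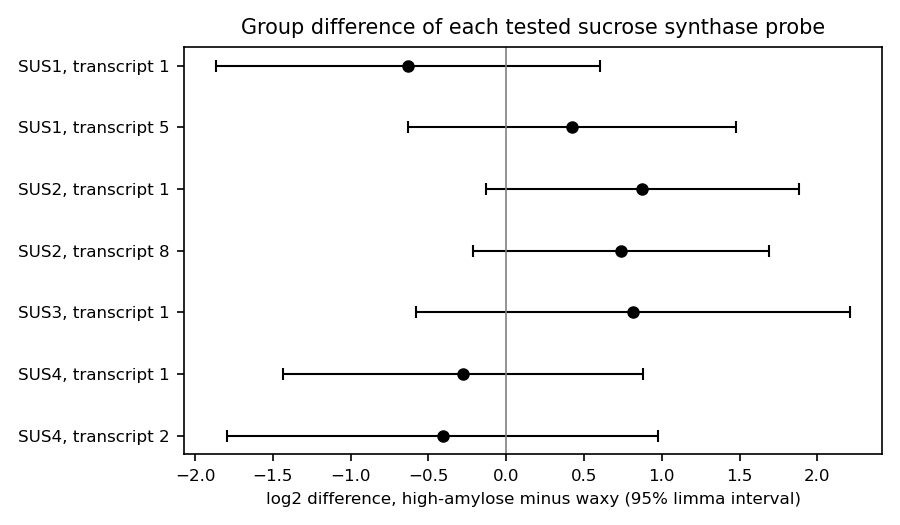
Log2 difference, high-amylose minus waxy, of the 7 sucrose synthase probes tested (points), with 95% limma intervals (bars) from the fit with every probe tested apart. All 7 intervals include 0, and the SUS1 probes lie on opposite sides of it.

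SUS6 (LOC_Os02g58480, chromosome 2) gave no signal well above background with either of its 2 probes, both annotated to transcript 1. The log2 levels of the first ranged from -4.71 to -3.66 on the high-amylose arrays and from -5.99 to -5.79 on the waxy arrays. Those of the second ranged from -4.74 to -3.35 and from -4.86 to -4.03. The error that the software gave for a SUS6 spot was at least 32.9% of its signal. A difference at SUS6 was therefore not detectable at this signal, and no fold is given. Probes are not of equal sensitivity, so a dim probe does not give the amount of transcript.

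SUS7 (LOC_Os04g17650, chromosome 4) was well above background on 1 array, waxy replicate 2, at -3.26. It was at -4.14 on waxy replicate 1 and at -5.56, -4.95 and -4.93 on the high-amylose arrays, none of them well above background. The software's error of a SUS7 spot was 100% to 101% of its signal on the high-amylose arrays. With a single array above background, no order and no fold is read from these values. SUS7 was not tested, since a probe had to be well above background on 2 arrays. With no filter on dim probes its measured difference was -1.44 (SE 0.47) and did not pass over 48857 loci (limma adjusted p = 0.682, unadjusted p = 0.0128). That difference rests on high-amylose signals no larger than their error.

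The tested members did not vary together over the 5 arrays in one way. Each locus was centred on its own mean over the arrays, and likeness was the root mean square difference between centred profiles, in log2 units, where 0 is identical. SUS2 and SUS3 were the pair most alike at 0.49, and SUS1 and SUS4 followed at 0.53. The median likeness to all other loci was 0.68 for SUS2, 0.92 for SUS3, 0.80 for SUS1 and 0.69 for SUS4. All 4 members were above their own mean on high-amylose replicate 1, by 0.53 for SUS1, 0.86 for SUS2, 1.04 for SUS3 and 0.68 for SUS4.

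The split between high-amylose replicate 1 and the dimmer pair of replicates 2 and 3 was in the same direction in every member tested. Replicate 1 exceeded the mean of the pair by 1.18 in SUS1, 0.76 in SUS2, 1.06 in SUS3 and 1.19 in SUS4. Over all loci tested, 39.7% had replicate 1 above that mean. The split was also present in the medians of ADP-glucose supply, with deviations of 0.65, -0.61 and -0.44 on the high-amylose arrays, and of UDP-glucose and fructose use, with 0.35, -0.33 and -0.31. Sucrose synthesis (0.31, 0.09 and -0.73) and fermentation (0.34, 0.08 and -0.60) had its direction too, with replicate 1 above both others. Among their high-amylose arrays only replicate 3 was below the mean. Sucrose transport (-0.19, 0.04 and 0.25) and invertases (0.16, 0.06 and 0.73) did not share the split. For SUS1 and SUS4 the arrays of the pair carried the negative group difference. Replicate 1 minus the waxy mean was 0.15 in SUS1 and 0.51 in SUS4, and the pair minus the waxy mean was -1.03 and -0.68. For SUS2 both values were positive, at 1.38 and 0.62, and for SUS3 at 1.52 and 0.46. Which part of this split belongs to the accessions and which to the scan date cannot be told apart.

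Green outer layer markers differed along that same split, in the other direction. The 9 tested had median deviations of -1.18, 1.02 and 2.54 in high-amylose replicates 1 to 3, against -1.39 and -1.01 in waxy seed. Their summed log2 level was 0.50 to 4.08 on the high-amylose arrays and 0.58 to 0.87 on the waxy arrays. Of them 3 were not well above background on either waxy array, nor on 1 of the 3 high-amylose arrays. They were the antenna protein genes LOC_Os08g33820 and LOC_Os07g37240 and the Rubisco small subunit gene LOC_Os12g19381. On high-amylose replicate 1 these were at -4.13, -4.17 and -4.90. The embryo and aleurone markers had medians of 0.55, 0.70 and -0.99 in the high-amylose accessions, with replicate 3 apart from the others, and starchy endosperm markers 0.06, 0.13 and 0.07. Embryo and aleurone markers summed to 9.43 to 10.6 in high-amylose and 9.49 to 10.0 in waxy seed, and starchy endosperm markers to 12.9 to 13.1 and 12.6 to 12.9. The green markers were thus highest on replicates 2 and 3, the arrays on which SUS1 and SUS4 were lowest. Within this pair the green markers were higher on replicate 3, where SUS4 was lower, while SUS1 was lower on replicate 2. The part of the green markers in the sucrose synthase values was not tested. In whole seed, fewer cells of a type and less RNA per cell cannot be told apart.

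Ratios between members within an array do not depend on a scaling that applies a common factor to all spots of an array. They were compared after the values above were known. Quantile scaling and normexp background correction can change them. Under normexp with the 75th percentile the group difference was -0.41 for SUS1 and 0.55 for SUS3, in place of -0.63 and 0.82. Under quantile scaling it was 0.84 for SUS2 and -0.41 for SUS4, in place of 0.88 and -0.28. Each ratio is given as log2, minus its mean over the 5 arrays. The ratio of SUS1 to SUS3 was at -0.50, -0.62 and -0.62 on the high-amylose arrays and at 1.37 and 0.37 on the waxy arrays. The 3 high-amylose accessions were close to each other in this ratio, and the waxy accessions were further apart. The group difference was -1.45, or 2.73-fold lower SUS1 relative to SUS3 in high-amylose seed, and was -0.95 without waxy replicate 1 and -1.95 without waxy replicate 2. The same groups did not overlap for SUS1 to SUS2, at -0.32, -1.16 and -0.32 against 0.78 and 1.03, nor for SUS2 to SUS4, at 0.18, 0.25 and 0.96 against -0.76 and -0.62.

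Of 6 pairs 3 did not overlap, each with an exact permutation p of 0.1 (two-sided, n = 3 and 2), the smallest that 10 splits of 5 arrays allow, and an adjusted exact p of 0.2 over the 6 pairs. The ratio of SUS2 to each of the 28944 other loci tested was higher in high-amylose seed without overlap for 50.2%, which covers both SUS2 pairs. The ratio of SUS1 to each other locus was lower without overlap for 9.00%, that of SUS3 higher for 10.4%, and that of SUS4 lower for 4.45%. With the transcript 5 probe of SUS1, its ratio to SUS3 overlapped (-0.39), as did its ratio to the main SUS2 probe (-0.45). For SUS2 to SUS4 all 4 combinations of probes kept the groups apart, with differences of 1.02 to 1.29.

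**Figure D3:**
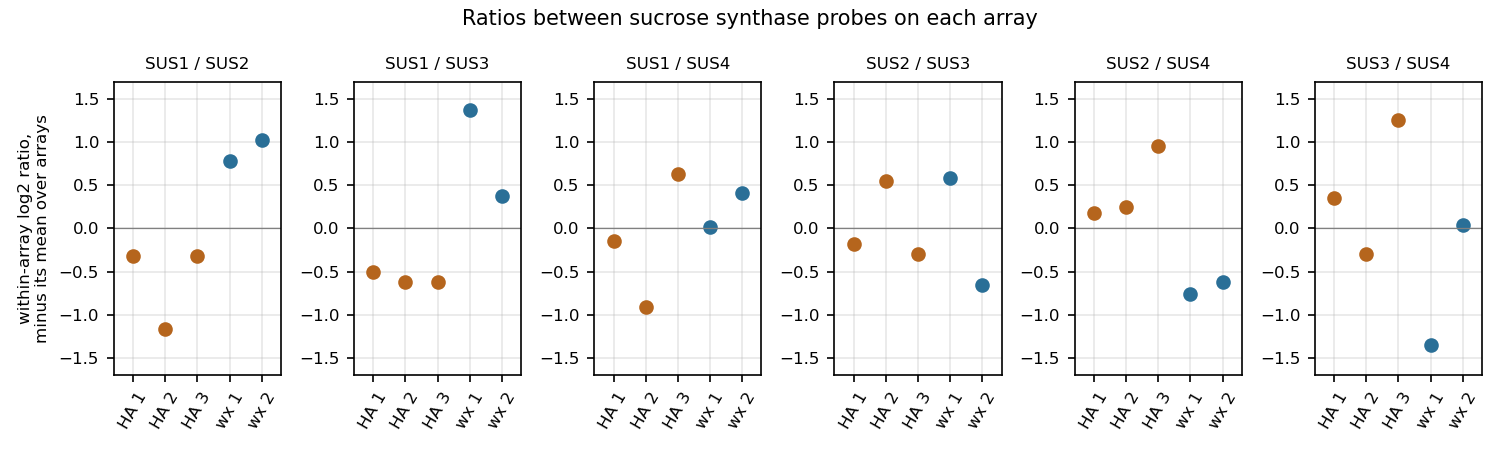
Within-array log2 ratio of each pair of tested sucrose synthases minus its mean over the 5 arrays (vertical axis), on the high-amylose arrays (HA, brown) and the waxy arrays (wx, blue). The groups do not overlap for SUS1 to SUS2, SUS1 to SUS3 and SUS2 to SUS4, and overlap for the other 3 pairs.

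The genes around sucrose synthase were read from the same fit, in which the adjusted p of each locus named was 1.00 (limma) except where given. Acid and neutral invertases, which split sucrose into glucose and fructose instead, had 6 of 8 loci tested, 4 higher and 2 lower in high-amylose seed, with a median of 0.22 and none called. The cell wall invertase GIF1 (LOC_Os04g33740) was at -1.13, -0.90 and 1.17 on the high-amylose arrays and at -3.15 and -3.19 on the waxy arrays, a difference of 2.88 that did not pass (SE 0.66, limma adjusted p = 0.589). The vacuolar invertase gene LOC_Os04g45290 had a difference of 2.13 (SE 0.82), detected on 2 of the 3 high-amylose arrays and 1 of the 2 waxy arrays. Sucrose transport, which brings sucrose to the endosperm, had 7 of 8 loci tested, 4 higher and 3 lower, with a median of 0.05 and none called. The sucrose transporter SUT1 (LOC_Os03g07480) had a difference of 0.61 (SE 0.43) and the sugar exporter SWEET15 (LOC_Os02g30910) one of -0.67 (SE 0.52).

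Genes that use the products of the reaction came next. UDP-glucose pyrophosphorylases, fructokinases, hexokinases, phosphoglucomutases and phosphoglucose isomerases had 16 of 19 loci tested, 6 higher and 10 lower, with a median of -0.30 and none called. UGP2 (LOC_Os02g02560), a pyrophosphorylase that turns UDP-glucose into glucose 1-phosphate, was at 3.35, 2.81 and 1.88 on the high-amylose arrays and at 3.40 and 3.43 on the waxy arrays, a difference of -0.73 (SE 0.50, limma adjusted p = 1.00). Its high-amylose values stepped down in the same order as those of SUS4, an order found at other loci of these lists too. The phosphoglucose isomerase gene LOC_Os06g14510 had it as well, at -1.12, -1.91 and -2.26. On high-amylose replicate 1 UGP2 was below both waxy arrays, while SUS4 was above both. The hexokinase gene LOC_Os01g09460 had a difference of -1.51 (SE 0.62, limma adjusted p = 1.00), detected on 1 of the 3 high-amylose arrays and on both waxy arrays.

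ADP-glucose supply, the step that commits glucose to starch, had all 7 loci tested, 1 higher and 6 lower, with a median of -0.63, further from the all-locus median of 0.03 than the other pathway lists, and none called. The small subunit AGPS2 (LOC_Os08g25734) ranged from 5.84 to 6.62 on the high-amylose arrays and was at 6.64 and 7.12 on the waxy arrays, a difference of -0.72 (SE 0.44, limma adjusted p = 1.00). The other small subunit gene, AGPS1 (LOC_Os09g12660), had a difference of -0.76 (SE 0.51). Sucrose synthesis, through sucrose phosphate synthases and phosphatases, had 7 of 8 loci tested, 1 higher and 6 lower, with a median of -0.37 and none called. There the difference was -0.66 (SE 0.54) for LOC_Os08g20660 and -0.75 (SE 0.61) for LOC_Os06g43630, both sucrose phosphate synthase genes. Alcohol dehydrogenases and pyruvate decarboxylases of fermentation, which in cereals respond to low oxygen together with sucrose synthase, were lower at all 4 loci with a median of -0.22 and none called. The difference was -0.37 (SE 0.68) for ADH2 (LOC_Os11g10510) and -0.34 (SE 0.55) for PDC1 (LOC_Os05g39310). The smallest of the 4 was -0.02. Each difference was smaller than its SE, and the groups overlapped at all 4 loci. Over all loci tested, 53.9% had a difference above 0.

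**Figure D4:**
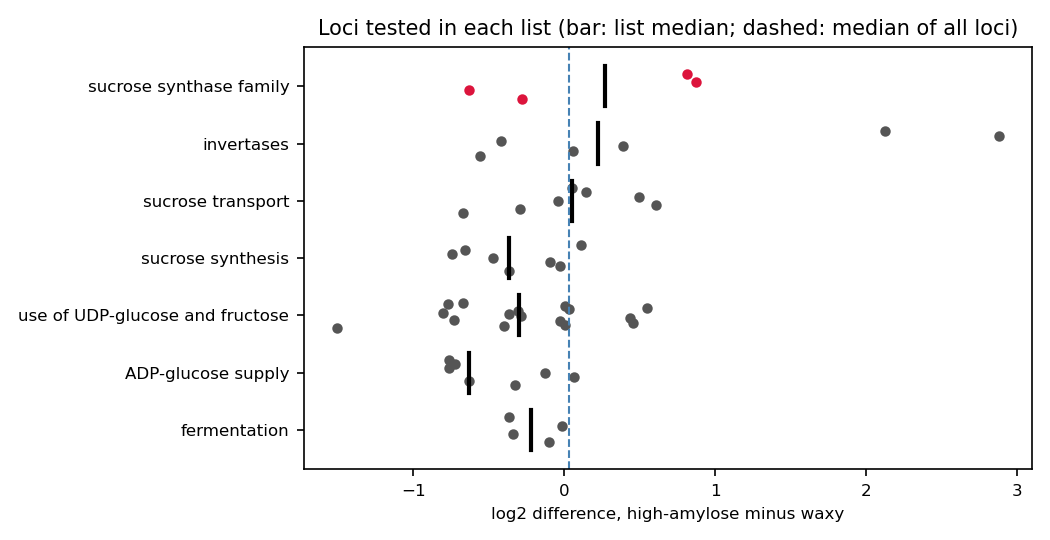
Log2 difference, high-amylose minus waxy, of every tested locus (points) in the sucrose synthase family (red) and in 6 lists of neighbouring steps (grey), with list medians as bars and the median of all loci, 0.03, as a dashed line. The 4 sucrose synthases lie on both sides of 0, and the list medians run from -0.63 for ADP-glucose supply to 0.27 for the family.

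Among the 47 tested loci of these lists, those with a profile over the 5 arrays most like a sucrose synthase were found by the same root mean square difference. SUS1 was nearest to AGPS1 (0.14) and to the sucrose phosphate synthase gene LOC_Os06g43630 (0.22). SUS4 was nearest to the phosphoglucose isomerase gene LOC_Os06g14510 (0.14) and to PDC2, the pyruvate decarboxylase gene LOC_Os03g18220 (0.18). SUS2 was nearest to the fructokinase FRK1 (LOC_Os01g66940, 0.40) and a plastid phosphoglucose isomerase gene (LOC_Os09g29070, 0.47), and SUS3 to the hexokinase gene LOC_Os01g71320 (0.57) and to AGPL3 (LOC_Os03g52460, 0.62), a large subunit of ADP-glucose pyrophosphorylase. SUS3 was thus less like any locus of the lists than it was like SUS2 (0.49). The likeness values describe 5 arrays, which share the split by scan date, and carry no test.

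**Figure D5:**
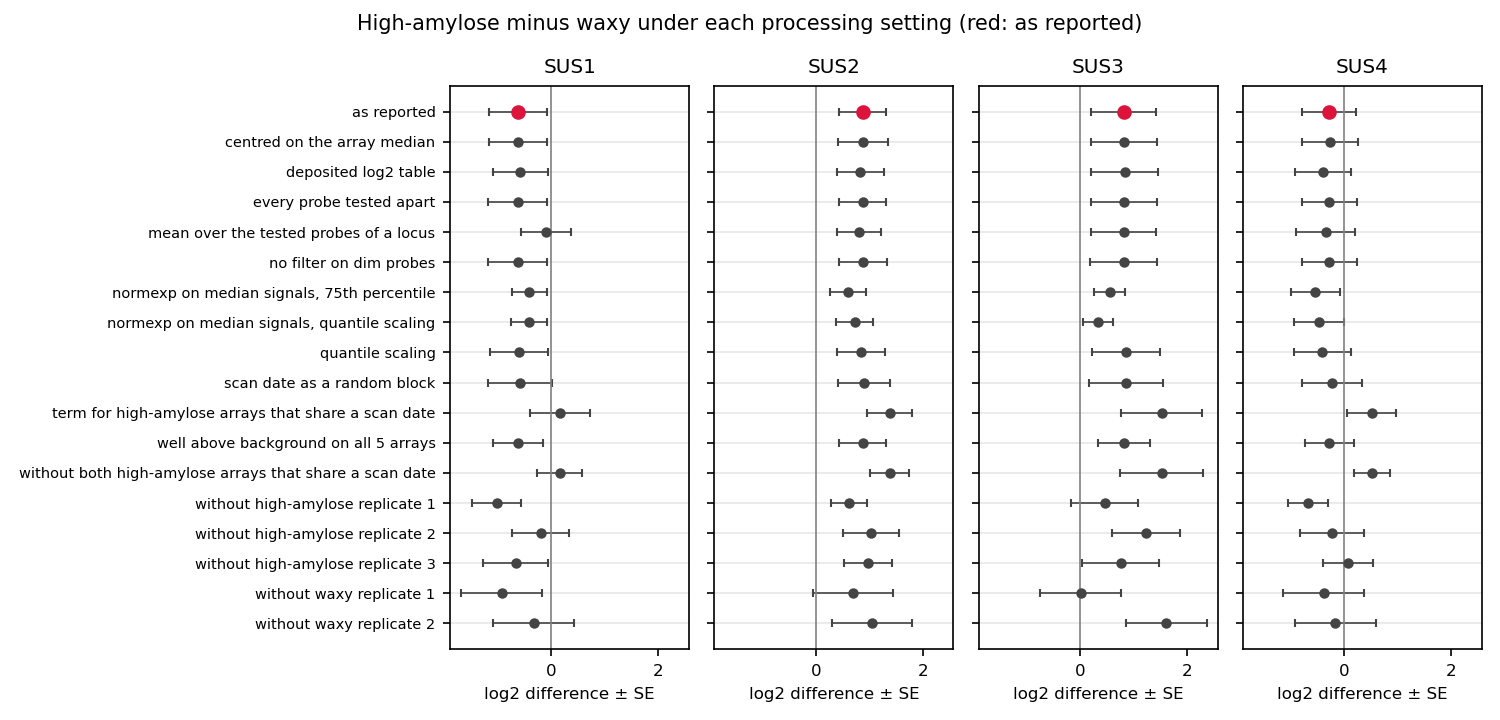
Log2 difference, high-amylose minus waxy, of the 4 tested sucrose synthases (points) with its standard error (bars) under each processing setting, the reported one in red. SUS2 and SUS3 stay above 0 under all settings shown, SUS3 at 0.02 without waxy replicate 1, while SUS1 and SUS4 cross 0 when both high-amylose arrays of the shared scan date are left out or given their own term, and SUS4 also without high-amylose replicate 3.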

How the data were processed

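Spot intensity was deposited by the authors in scanner files of Feature Extraction 11.5.1.1, per the file headers, and the processed signal column was used. A table of log2 values was also deposited by the authors; the submitters' processing notes name limma. Its differences between arrays followed those of quantile-normalized log2 intensity (r of at least 0.9996, slopes of 0.989 to 0.992, over 10 pairs of arrays). The baseline of each of its probes is unknown, and its column medians were -0.017, 0.040, 0.027, -0.023 and 0.0041. It served as an alternative.

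Control spots were left out and no spot was saturated. Spots of a probe were averaged on the log2 scale without outlier spots. A probe was tested if well above background on 2 arrays, which kept 35634 of 59676 probes; the probe with the highest mean stood for a locus. The comparison was a two-sided limma fit without covariates (version 3.58.1, under R 4.3.3) with eBayes and Benjamini-Hochberg adjustment. The fit was tested on simulated data. Figures and exact tests used Python 3.11.15, scipy 1.17.1 and matplotlib 3.10.9. The files hold no mean spot signal, so normexp (offset 50) used median signals. Members, lists and tests were chosen with earlier results of these data known. Named were all members and probes, per list the 2 loci with the smallest p, and per member the 2 nearest list loci. Gene symbols beyond the members follow common usage for these loci. Probe sequences were not used here, so cross-hybridisation between members, each probe being 1 spot, was not tested. The grid belongs to the IRGSP5 build, of which no coordinates were used.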

Additional observations from a re-analysis of the deposited data

How the results depend on the processing

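Under all 17 alternatives limma called 0 sucrose synthase loci, also with each array left out (0 to 0), and at most 1 member had an unadjusted p under 0.05 in any of them. The SUS2 difference (log2, high-amylose minus waxy) kept its sign in all 17, between 0.61 and 1.38, and SUS3 in all 17, between 0.02 and 1.61. SUS1 was at 0.15 and SUS4 at 0.51 both with a term for the high-amylose arrays of a shared scan date and without these arrays, an alternative chosen after seeing the data. Where a group is left with 1 array, its spread is assumed to equal that of the other group. SUS4 ran from -0.68 to 0.07 when each array was left out (0.069 without high-amylose replicate 3). The median of the 4 members was 0.95 with that term or without these arrays, and ran from -0.19 (without waxy replicate 1) to 0.44 with each array left out. It was -0.04 under normexp with quantile scaling. Over all loci, 8 calls became 3 under quantile scaling and in the deposited table (log2 values), 1 under normexp, 0 under normexp with quantile scaling (645 at an unadjusted p under 0.05), 0 with the scan date term (1162), 0 without the arrays of that date (1663) and 21 with the filter at all arrays, and ran from 3 (without high-amylose replicate 3) to 179 (without waxy replicate 2). The causes were not tested. Scan date as a random block (consensus correlation 0.18) called 6. No paired analysis was possible because the replicate numbers only name different accessions and were not taken from the labels. SUS6 and SUS7 were limited by signal over background.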
